A study of Mus musculus with 6 samples.

Results

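Polycomb proteins were followed through 10 genes: Ezh1, Ezh2, Eed, Suz12 and Jarid2 of the repressive complex PRC2, and Cbx2, Bmi1, Ring1, Rnf2 and Scml2 of, or associated with, PRC1. Members were all probe sets that the platform annotation assigns to one of these symbols and to no other gene, which gave 28 of the 45037 probe sets tested, or 10 of 18193 genes. RNA came from cells of prepubertal mouse testis sorted with magnetic beads for Thy1, a surface glycoprotein. The 3 arrays called P1, P2 and P3 held the Thy1-positive fraction, in which spermatogonial stem cells are enriched according to the transplantation described by the submitters, and N1, N2 and N3 held the Thy1-negative fraction, which is depleted of them. The arrays of each fraction are numbered replicates, and the labels do not say whether same-numbered arrays of both fractions share a donor preparation. Strain, genotype and age in days are not given in the sources used here, and no treatment is named for either fraction.

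PRC2 is a histone methyltransferase that places methyl groups on lysine 27 of histone H3. Its catalytic subunit is EZH2 or the related EZH1, and both need EED and SUZ12. PRC1 carries the RING proteins RING1 and RNF2 (also called RING1B), ubiquitin ligases for histone H2A, and in its canonical form a CBX protein that reads the PRC2 mark. Together they keep developmental genes silent, and in the male germ line they are known for restraining somatic genes in spermatogonia and meiotic cells.

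Promoters are shown for the EZH paralogues, whose measured differences were unequal, and for Scml2 and Ring1, which had probe sets called in opposite directions. Of the 10 genes, 9 were found by gene identifier in the RefSeq promoter table (GRCm38.p6 build). Each line gives the 200 bases just before the annotated transcription start on the gene's own strand, 5′ to 3′, for Ezh1 at chr11:101226464-101226663 (minus strand), Ezh2 at chr6:47595031-47595230 (minus strand), Scml2 at chrX:161162550-161162749 (plus strand) and Ring1 at chr17:34024681-34024880 (minus strand). Capitals mark CCAAT boxes (CCAAT) and GC boxes (GGGCGG) on either strand.
Ezh1: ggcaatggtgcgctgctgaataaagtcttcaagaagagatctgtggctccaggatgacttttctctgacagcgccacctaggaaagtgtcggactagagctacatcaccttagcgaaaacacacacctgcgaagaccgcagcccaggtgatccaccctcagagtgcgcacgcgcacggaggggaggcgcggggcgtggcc
Ezh2: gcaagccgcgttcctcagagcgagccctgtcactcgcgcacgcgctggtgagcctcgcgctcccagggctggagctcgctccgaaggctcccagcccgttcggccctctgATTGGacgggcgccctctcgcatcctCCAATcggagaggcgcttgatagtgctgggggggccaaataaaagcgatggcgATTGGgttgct
Scml2: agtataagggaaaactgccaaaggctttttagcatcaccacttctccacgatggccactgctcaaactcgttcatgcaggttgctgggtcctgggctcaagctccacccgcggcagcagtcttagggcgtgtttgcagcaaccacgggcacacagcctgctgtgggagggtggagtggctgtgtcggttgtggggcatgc
Ring1: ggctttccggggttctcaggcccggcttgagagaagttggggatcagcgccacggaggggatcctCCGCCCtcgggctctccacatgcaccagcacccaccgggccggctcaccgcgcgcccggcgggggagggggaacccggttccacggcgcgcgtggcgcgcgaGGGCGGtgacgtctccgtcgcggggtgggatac
The Ezh2 stretch held 3 CCAAT boxes, Ring1 held 2 GC boxes, and the Ezh1 and Scml2 stretches held neither motif. Over the 250 bases before the start, 33.8% of the 32851 windows in the table hold a CCAAT box and 32.7% a GC box. In the same windows Suz12 and Jarid2 each had 1 CCAAT box, Bmi1 6 GC boxes, Suz12 3, Rnf2 2, and each of 2 Jarid2 starts 1. CpG dinucleotides numbered 37 for Suz12, 30 for Ring1, 23 for Ezh2, 14 for Ezh1, 12 for Eed and 7 for Scml2, against a median of 6 over all windows. The E-box CACGTG, held by 6.02% of windows, occurred once, at Bmi1. The E2F sites TTTCGCGC and TTTGGCGC (0.256% and 0.417% of windows), a palindromic NRF1 site (0.782%) and the YY1 site AAGATGGC (1.56%), each searched on both strands, had no match in these 250-base windows of the members.

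In Thy1-positive cells the transcripts of Ezh1, Jarid2, Scml2 and Cbx2 were higher and those of Ring1 and Rnf2 lower, each by at least 1 probe set, while no probe set of Ezh2, Eed, Suz12 or Bmi1 passed the test. Values are log2(intensity + 1), a difference is the Thy1-positive mean minus the Thy1-negative mean, and a probe set is called at a limma p below 0.05 after Benjamini-Hochberg adjustment over all 45037 probe sets. With n = 3 arrays per fraction throughout, 6 of the 28 member probe sets were higher and 2 lower. The background is 11.8% of all probe sets higher and 11.5% lower. Of the 20 member probe sets above the array median on every array, 5 were higher and 2 lower, where the background among such probe sets is 21% and 19.9%. The fractions did not overlap for 16 of the 28 member probe sets, against 43.6% of all probe sets. The median difference was 0.30 over the 28 member probe sets and 0.00 over all. Without P3 the counts were 2 higher and 1 lower, without N3 4 and 1, and without N2 11 and 2. Calls over all 45037 probe sets also changed in these fits. They were 5332 higher and 5201 lower with all arrays, and 1639 and 1538 without P3. Without N3 they were 2067 and 2161, and without N2 6790 and 6214.

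**Figure D1:**
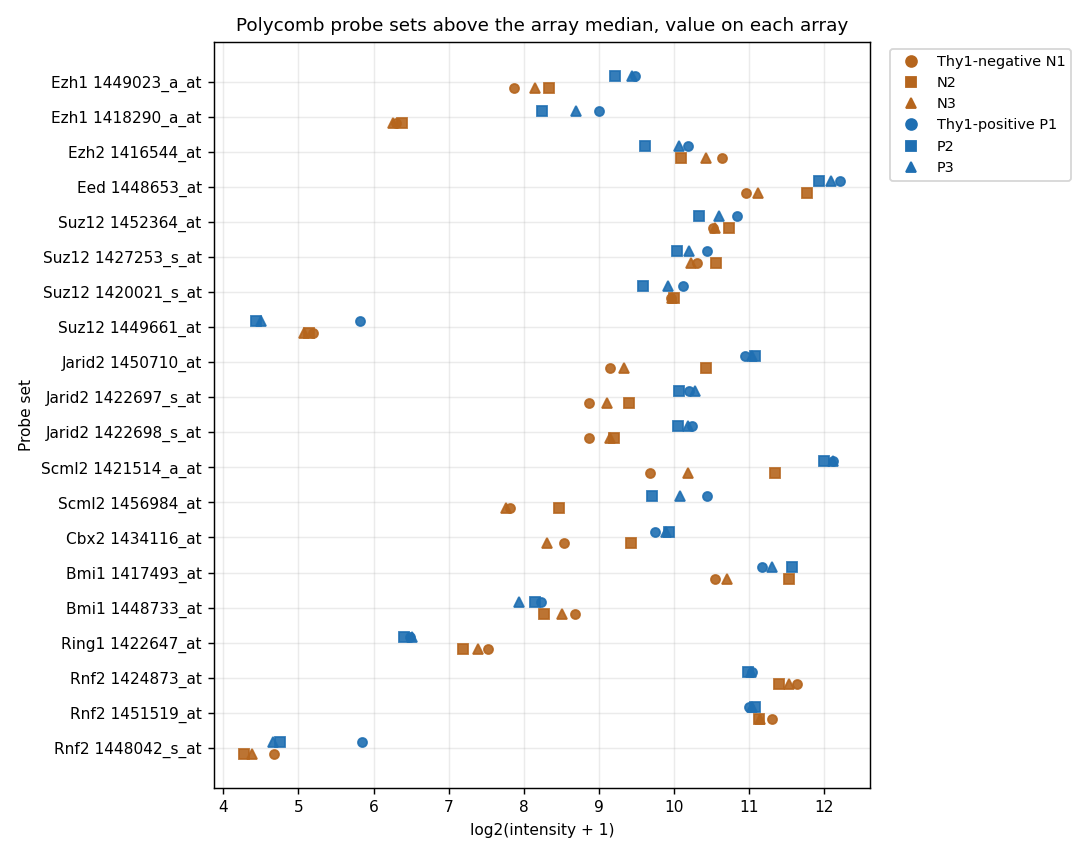
Values on each array, as log2(intensity + 1), for the 20 member probe sets above the array median on all 6 arrays; brown marks Thy1-negative and blue Thy1-positive arrays, with one marker shape per replicate number. Blue points lie to the right of all brown points for Ezh1, Jarid2, Scml2, Cbx2 and Eed and to the left for Ring1, Rnf2 1424873_at, Rnf2 1451519_at and Bmi1 1448733_at, and the brown square (N2) is often the brown point nearest to the blue ones.

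Among the arrays of the Thy1-negative fraction, N2 stood apart. It lay nearest to the Thy1-positive mean for 15 of the 20 bright member probe sets, and for 64.6% of all probe sets as bright. The mean of 18 genes shared by germ cells was 8.59, 10.42 and 9.16 on N1, N2 and N3 and 11.22 to 11.24 on the Thy1-positive arrays, and the summed intensity of these genes ranged from 15324 to 46160 and from 67571 to 69956. Of these genes 6 rose in the Thy1-positive fraction and 0 fell. Of 23 markers of undifferentiated spermatogonia 16 were higher (summed intensity 27784 to 28583 against 6649 to 10294). All 15 macrophage genes were higher (17021 to 23926 against 169 to 206, with 5 markers at low signal in Thy1-negative cells, meaning below the 25th percentile of the arrays). All 14 Sertoli cell genes were lower (6217 to 24498 against 104334 to 133815, with 2 at low signal in Thy1-positive cells), as were 5 of 7 genes of peritubular myoid cells (2499 to 3457 against 16355 to 17989, with 1 at low signal). Of 4 Leydig cell genes 1 was lower (2309 to 3732 against 4801 to 9694), and of 7 endothelial genes 1 was higher (91.9 to 174 against 91.6 to 165). Of 14 proliferation genes 5 were higher (74816 to 98727 against 60139 to 67341). Among the Thy1-positive arrays P2 stood apart. Its mean over the Sertoli cell genes was 8.18, against 6.42 on P1 and 6.54 on P3. Over the proliferation genes it was 11.97, against 12.40 and 12.34. Both fractions are thus mixtures whose makeup differs, fewer cells of a type and less RNA per cell cannot be told apart, and the part of these lists in the results below was not tested.

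Ezh1 encodes the PRC2 methyltransferase that is known from non-dividing as well as dividing cells. Its brightest probe set (1449023_a_at) measured 7.87, 8.34 and 8.14 on N1, N2 and N3 and 9.48, 9.21 and 9.45 on P1, P2 and P3, so every Thy1-positive array lay above every Thy1-negative one. It rose 2.40-fold (1.26, SE 0.15, limma adjusted p = 0.00945), and the call was lost without P3 (1.23, adjusted p = 0.0527). A second probe set (1418290_a_at) measured 6.30, 6.37 and 6.26 against 9.00, 8.24 and 8.69 and rose 5.05-fold (2.33, SE 0.21, adjusted p = 0.00519). That call held in all 6 fits that left out 1 array, with differences of 2.16 to 2.54. The other Ezh1 probe sets were dim: 1429629_at lay below the array median on 4 arrays and differed by 0.84 (SE 0.22, adjusted p = 0.0546), and 1429630_at lay near 2.4 on all 6 arrays, below the 25th percentile of each.

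Ezh2, the methyltransferase linked to dividing cells, has 1 probe set here. It measured 10.63, 10.09 and 10.43 on the Thy1-negative and 10.18, 9.61 and 10.07 on the Thy1-positive arrays. The fractions overlapped, because N2 lay below P1. The difference of -0.43 did not pass (SE 0.22, 95% interval -1.01 to 0.15, adjusted p = 0.257), and an increase beyond 0.15 lies outside this interval. Of the 14 proliferation genes, the 5 called higher were all Mcm genes. The 9 not called differed by -0.40 (Cdk1) to 0.73 (Bub1). Their relation to the Ezh2 value was not tested.

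The scaffold subunits gave no call. Eed, which binds the finished histone mark, measured 10.96, 11.77 and 11.11 against 12.21, 11.92 and 12.09 by its bright probe set, with no overlap between fractions. Its difference of 0.79 (SE 0.24, 95% interval 0.15 to 1.44) had an unadjusted p of 0.0256 and an adjusted p of 0.0869, and passed without N2 (1.04, adjusted p = 0.00957). The second Eed probe set, 1453830_at, lay below the array median on all 6 arrays and differed by 0.09 (adjusted p = 0.449).

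Suz12, needed for PRC2 assembly, was measured by 6 probe sets, of which 4 lay above the array median on every array. The brightest (1452364_at) gave 10.52, 10.74 and 10.55 in Thy1-negative and 10.83, 10.33 and 10.60 in Thy1-positive cells, overlapping fully. The difference was -0.02 (95% interval -0.41 to 0.38), and the next probe sets differed by -0.14 (-0.51 to 0.24) and -0.10 (-0.49 to 0.29). These intervals leave room for changes of up to 0.51 in size. The weaker probe set 1449661_at spread widely in Thy1-positive cells (5.82, 4.43 and 4.50), where P1 stood above the others, and passed as lower without P1 (-0.67, adjusted p = 0.0148). It differed by -0.22 with all arrays (95% interval -1.33 to 0.90). The dimmest Suz12 probe sets, 1420022_s_at and 1420020_at, differed by 0.41 (-0.92 to 1.75) and 0.14 (-0.21 to 0.49) without a call.

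Jarid2 encodes a cofactor that helps recruit PRC2 and tunes its activity. The probe set 1422698_s_at measured 8.87, 9.20 and 9.15 against 10.23, 10.05 and 10.19, again with no overlap. It rose 2.11-fold (1.08, SE 0.11, adjusted p = 0.00674) and was called in all 6 fits without 1 array. A second one, 1422697_s_at, rose 2.08-fold (1.05, SE 0.15, adjusted p = 0.0143). It lost its call without N3 (1.04, adjusted p = 0.0633), P1 (1.05, adjusted p = 0.0562) or P3 (1.01, adjusted p = 0.0691). The ending _s_at marks probe sets whose probes can match more than one transcript. The brightest probe set, 1450710_at, measured 9.15, 10.43 and 9.33 against 10.94, 11.08 and 11.04. Its difference of 1.38 (SE 0.37, adjusted p = 0.0629) was not called, N2 standing above the other Thy1-negative arrays, and passed without N2 (1.78, adjusted p = 0.00207).

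**Figure D2:**
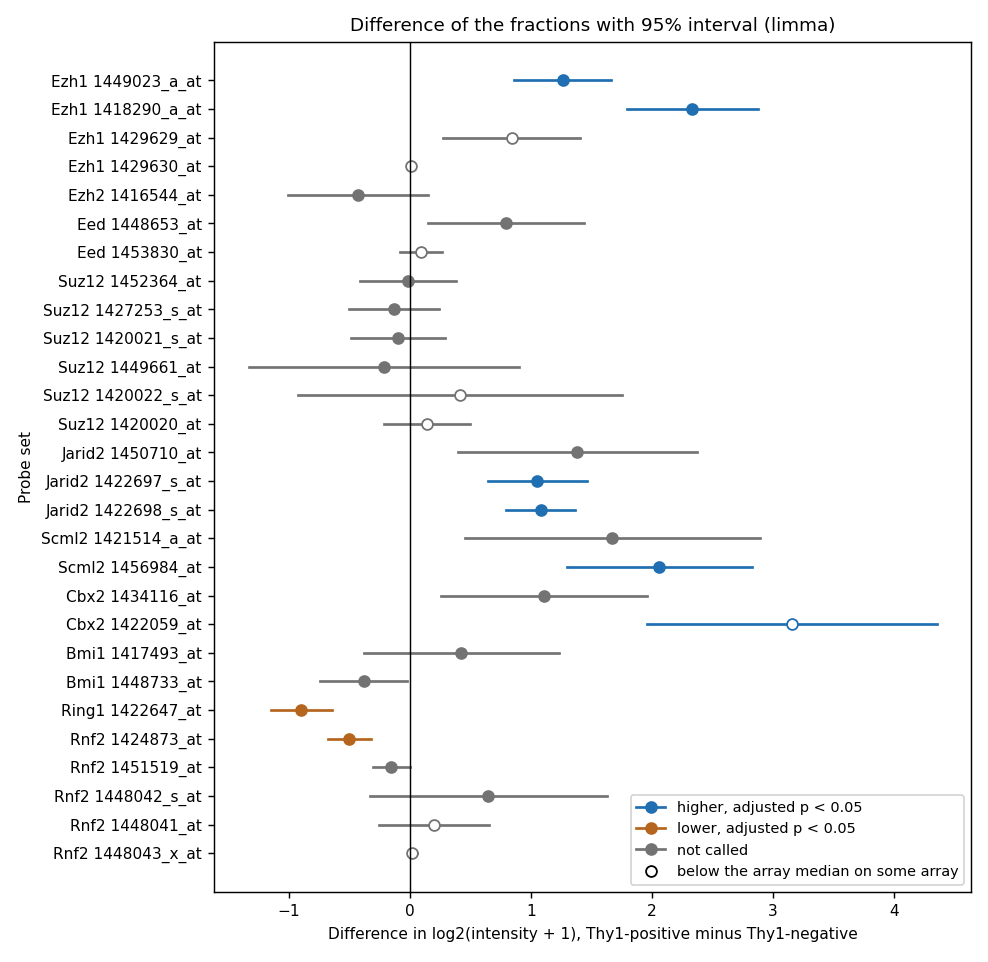
Difference between fractions in log2(intensity + 1), Thy1-positive minus Thy1-negative, with limma's 95% interval for each of the 28 member probe sets; blue is called higher, brown called lower, grey not called, and open circles lie below the array median on at least 1 array. Called increases run from 1.05 (Jarid2) to 3.16 (Cbx2), and the called decreases are -0.90 (Ring1) and -0.50 (Rnf2).

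Among the PRC1-associated genes, Scml2 encodes a Polycomb protein of germ cells that is known for silencing somatic genes during spermatogenesis. Its probe set 1456984_at measured 7.81, 8.46 and 7.77 on the Thy1-negative and 10.44, 9.70 and 10.08 on the Thy1-positive arrays. All Thy1-positive arrays were more than 1 unit above all others, and the gene rose 4.17-fold by this probe set (2.06, SE 0.29, adjusted p = 0.0130). The call was lost without N1 (1.96, adjusted p = 0.0507), N3 (1.94, adjusted p = 0.0560) or P3 (2.06, adjusted p = 0.0646). The brighter probe set 1421514_a_at measured 9.68, 11.35 and 10.18 against 12.11, 12.00 and 12.11. Its Thy1-positive arrays agreed to within an SD of 0.07, while the Thy1-negative SD was 0.86 with N2 the highest. The difference of 1.67 (SE 0.46, adjusted p = 0.0663) passed without N2 (2.15, adjusted p = 0.00559). On the Thy1-negative arrays this brighter probe set had N2 above N3 above N1, as did the mean of the germ cell genes given above. Jarid2 1450710_at, Eed 1448653_at, Bmi1 1417493_at and Suz12 1452364_at had that order too, none of them called. So did the called Ezh1 1449023_a_at, Jarid2 1422698_s_at and Jarid2 1422697_s_at. Ring1, Rnf2 1424873_at and Ezh2 had the reverse order, N1 above N3 above N2. Cbx2 1434116_at and the called Ezh1 1418290_a_at and Cbx2 1422059_at had neither order. For the called 1456984_at N2 was also the highest, with N1 (7.81) and N3 (7.77) close together. The part of germ cell content in these values was not tested.

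Cbx2 encodes a chromodomain protein that anchors canonical PRC1 to methylated chromatin and is needed for normal testis development. The probe set 1422059_at measured 3.81, 2.95 and 2.30 against 5.74, 6.36 and 6.42. The Thy1-negative arrays were all below their array median, and N3 was below its 25th percentile. The increase was 8.92-fold as measured (3.16, SE 0.46, adjusted p = 0.0137), 3.03 on the log2 scale after a floor at the 25th percentile of each array, 1.89 with a pseudocount of 16, and was not called without P3 (3.03, adjusted p = 0.0675). The brighter probe set 1434116_at measured 8.53, 9.43 and 8.30 against 9.75, 9.93 and 9.90. It did not overlap between fractions either, but its difference of 1.11 (SE 0.32, adjusted p = 0.0767) passed the threshold without N2 (1.44, adjusted p = 0.00429) and not with all arrays.

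Bmi1, the PCGF subunit of canonical PRC1 known for stem cell self-renewal, gave no call, and its probe sets differed in sign. The brighter one, 1417493_at, measured 10.55, 11.53 and 10.70 against 11.17, 11.57 and 11.30, with N2 inside the Thy1-positive range. The difference was 0.42 (95% interval -0.38 to 1.23, adjusted p = 0.433), and 0.73 without N2 (adjusted p = 0.0405). The other, 1448733_at, measured 8.68, 8.27 and 8.51 against 8.23, 8.15 and 7.93 and differed by -0.39 (95% interval -0.75 to -0.02, adjusted p = 0.125).

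The RING ligases went the other way. Ring1 measured 7.52, 7.18 and 7.39 in Thy1-negative and 6.48, 6.41 and 6.51 in Thy1-positive cells, with a gap between the fractions. It fell by 0.90 on the log2 scale, or 1.87-fold (SE 0.10, adjusted p = 0.00748), and the call held in all 6 fits without 1 array (-0.99 to -0.82). Rnf2 measured 11.63, 11.39 and 11.53 against 11.04, 10.98 and 11.03 by 1424873_at and was 1.42-fold lower (-0.50, SE 0.07, adjusted p = 0.0122). Without N3 (-0.50, adjusted p = 0.0561) or P3 (-0.51, adjusted p = 0.0601) it was not called. Another bright Rnf2 probe set, 1451519_at, gave 11.31, 11.13 and 11.14 against 11.00, 11.07 and 11.03. The latter differed by -0.16 (SE 0.06, adjusted p = 0.134). The 3 weaker Rnf2 probe sets had differences above 0, from 0.02 to 0.65, and no call. Of these, 1448041_at and 1448043_x_at lay below the array median on all 6 arrays. On P1, P2 and P3, 1448042_s_at measured 5.85, 4.76 and 4.66, and 1448041_at 3.75, 3.19 and 3.19. Without P1 they differed by 0.27 and 0.01. Between 1424873_at and 1451519_at the size differed and the sign did not. By the mean of its 5 probe sets, the weak ones included, Rnf2 differed by 0.04 (limma adjusted p = 0.873 over genes).

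**Figure D3:**
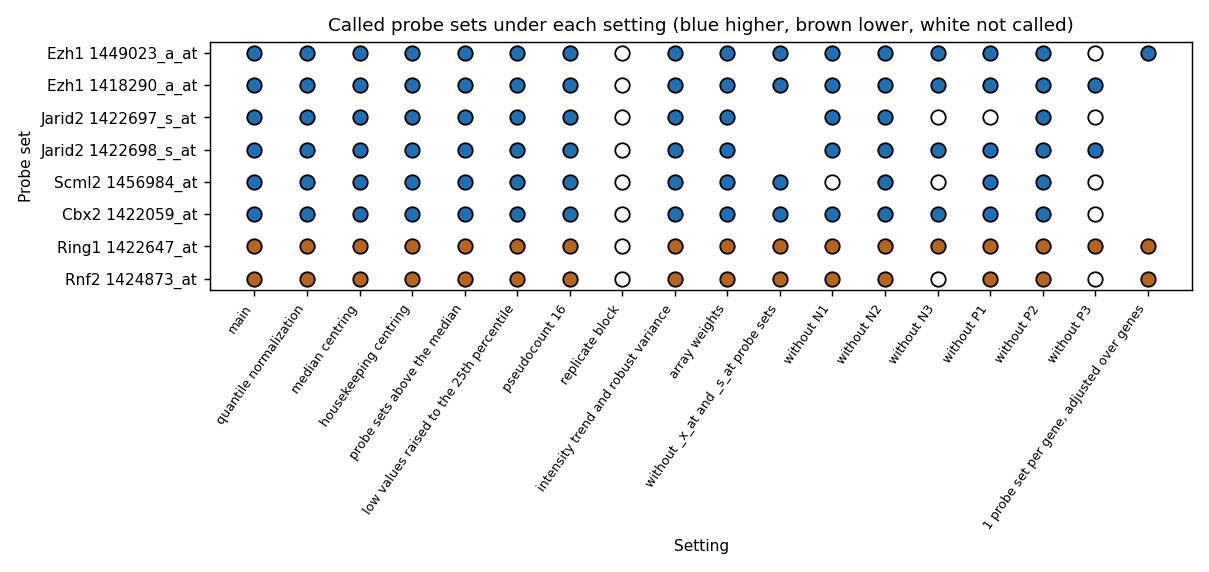
The 8 called member probe sets under each processing setting (columns, with N and P naming the array left out); blue is higher, brown is lower, white is not called and a gap means that the probe set was not tested. All 8 were uncalled with the replicate number as a block, and 5 lost their call without P3. Over all probe sets, 746 were higher and 485 lower with that block, and 1639 and 1538 without P3.

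Related genes were next compared within arrays, as the log2 value of one minus that of the other, by their brightest probe sets. A change in such a difference between fractions shows unequal change, not the level of either gene. Ezh2 minus Ezh1 was 2.77, 1.75 and 2.29 in Thy1-negative and 0.70, 0.41 and 0.63 in Thy1-positive cells, which do not overlap, a shift of -1.69. Ring1 minus Rnf2 shifted by -0.40, the difference of Ring1 being the larger in size by these probe sets. Bmi1 minus Pcgf2, its PCGF paralogue, shifted by 0.85. Cbx2 minus Cbx7, another chromobox gene, shifted by -1.10, and by -0.65 with a pseudocount of 16. These 4 shifts had no overlap between fractions and each an exact 2-sided permutation p of 0.10, the smallest that 3 against 3 arrays allow, and an adjusted p of 0.125 over the 5 pairs. Scml2 minus Scmh1 shifted by 0.79 with overlap (exact permutation p = 0.30, adjusted p = 0.30), and by 0.46 without N1 and 1.20 without N2. The choice of probe sets moved 4 of the 5 shifts by over 1.5 times or turned them. With the mean of all probe sets of each gene, Ring1 minus Rnf2 shifted by -0.94, Bmi1 minus Pcgf2 by 0.18, Cbx2 minus Cbx7 by 0.73 and Scml2 minus Scmh1 by 2.41, while Ezh2 minus Ezh1 shifted by -1.54. Quantile normalization gave -0.23 for Ring1 minus Rnf2.

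**Figure D4:**
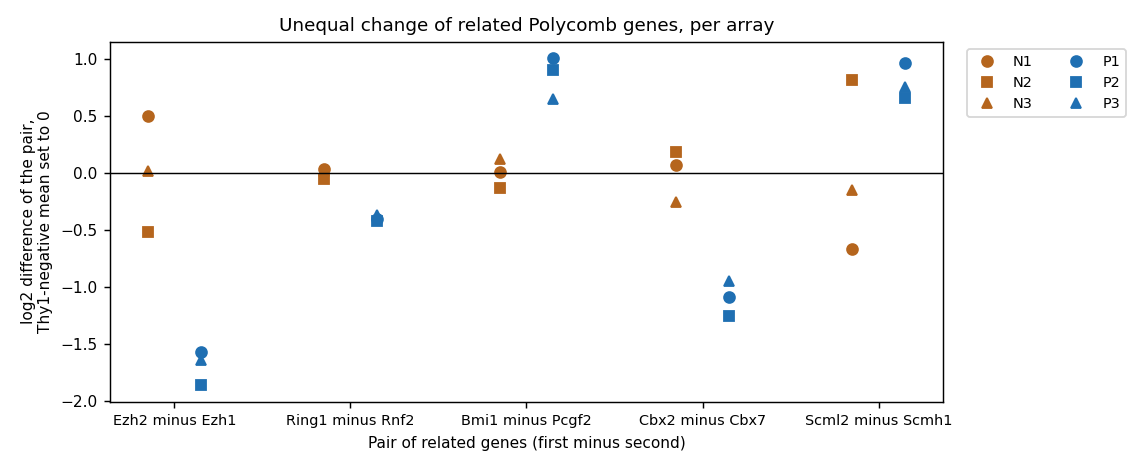
Within-array difference in log2(intensity + 1) between related Polycomb genes, drawn for each array relative to the Thy1-negative mean of the pair; brown is Thy1-negative, blue Thy1-positive. The fractions separate for all pairs except Scml2 minus Scmh1, where N2 lies among the Thy1-positive arrays.

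Around the members, 46 of 50 other listed Polycomb genes were measured, each by its brightest probe set. Of these 14 were higher and 9 lower, against a background of 16.4% and 13.2% of all genes by their brightest probe set, and their median difference was 0.30 (0.01 over all genes). Most of these genes are bright: 44 of the 46 were among the 22518 probe sets whose mean lay above the median. A fit on those alone called 19 higher and 8 lower, against 6526 and 6046 of all 22518. The median difference of all genes in it was 0.14. With all probe sets tested, the counts were 8 and 4 without P3, 9 and 4 without P1, 10 and 4 without N3, 11 and 5 without N1. Over all 45037 probe sets, calls in these 4 fits were 1639 and 1538, 2657 and 2773, 2067 and 2161, and 2806 and 2791. With all arrays they were 5332 and 5201. Of the 46, 24 had both called and uncalled probe sets, and Asxl1 and Dcaf7 had probe sets called in opposite directions.

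Of 7 PRC2 cofactors, 2 rose and 2 fell. Mtf2, a Polycomb-like protein that guides PRC2 to CpG islands, measured 10.78, 11.30 and 10.91 against 12.32, 12.30 and 12.22 and rose 2.43-fold (1.28, SE 0.15, adjusted p = 0.00897), with 4 of its 6 probe sets called higher. Epop, which links PRC2 to elongin, rose 2.74-fold (1.45, SE 0.15, adjusted p = 0.00724) from a Thy1-negative mean of 4.18, near the array median. The histone-binding subunit Rbbp4 (-0.39, adjusted p = 0.0100) and Aebp2 (-0.35, adjusted p = 0.00711) fell by little. The Rbbp4 probe set ends in _x_at, which marks possible cross-hybridisation.

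Of 9 canonical PRC1 paralogues, 3 rose and 1 fell. Cbx7 measured 4.47, 5.26 and 4.57 against 6.85, 7.20 and 6.85 and rose 4.60-fold (2.20, SE 0.25, adjusted p = 0.00876). Scmh1, a relative of Scml2, rose (0.88, SE 0.09, adjusted p = 0.00648), although its other probe sets differed by -1.80 and -0.72 without a call. The polyhomeotic genes split: Phc1 was higher (0.94, SE 0.22, adjusted p = 0.0424) and Phc3 lower (-1.76, SE 0.36, adjusted p = 0.0302), and Phc2 did not pass (0.08, SE 0.24). The calls of Phc1 and Phc3 held in 1 and 2 of the 6 fits without 1 array. Pcgf2 did not pass (-0.43, SE 0.38, adjusted p = 0.523).

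Variant PRC1 complexes lack a CBX subunit and use other PCGF proteins. Of their 15 measured subunits, 6 rose, 2 fell and 7 were not called. Pcgf6, the PCGF subunit of the complex that holds MGA and E2F6 and represses germ cell genes in embryonic stem cells, measured 9.46, 9.54 and 9.33 against 10.80, 10.86 and 10.90. It rose 2.66-fold (1.41, SE 0.06, adjusted p = 0.00109) with the arrays of each fraction close together. Its partners E2f6 (0.69, SE 0.05, adjusted p = 0.00317) and Mga (0.56, SE 0.11, adjusted p = 0.0299) were higher too, Mga in 1 of the 6 fits without 1 array, while L3mbtl2 did not pass (1.00, SE 0.29, adjusted p = 0.0771). Bcorl1 (1.60, SE 0.16, adjusted p = 0.00692) and Kdm2b, which recruits PRC1 to unmethylated CpG islands (1.12, SE 0.14, adjusted p = 0.0108), rose as well, Kdm2b in 5 of those 6 fits. Those lower were Dcaf7 (-0.32, adjusted p = 0.0452), with another probe set called higher by 1.71, and Pcgf3 (-0.28, SE 0.02, adjusted p = 0.00273).

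Of 5 measured sequence-specific and MBT domain proteins, 1 rose and 2 fell. Sfmbt2 was higher (2.05, SE 0.49, adjusted p = 0.0452), in 1 of the 6 fits without 1 array, the one without N2, which measured 9.09 against 7.41 and 7.71 on N1 and N3. L3mbtl3 was lower (-2.59, SE 0.52, adjusted p = 0.0297), in 2 of those fits, and the DNA-binding factor Yy1 fell slightly in all of them (-0.37, SE 0.03, adjusted p = 0.00491). Among 10 genes of enzymes that oppose Polycomb marks and their cofactors, 2 were higher and 2 lower. Usp16, a deubiquitinase for histone H2A, rose (0.61, SE 0.10, adjusted p = 0.0184), and Asxl3, a cofactor of the deubiquitinase BAP1, was higher (1.25, SE 0.29, adjusted p = 0.0433). Foxk2 (-0.64, SE 0.13, adjusted p = 0.0318) and the H3K27 demethylase gene Kdm6a (-0.44, SE 0.10, adjusted p = 0.0407) were lower. These 4 calls held in 3, 1, 2 and 1 of the 6 fits without 1 array. Asxl1 is left without a direction, since its probe sets differed by -1.16 and 2.28, both called, and by 0.68 in its brightest one.

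**Figure D5:**
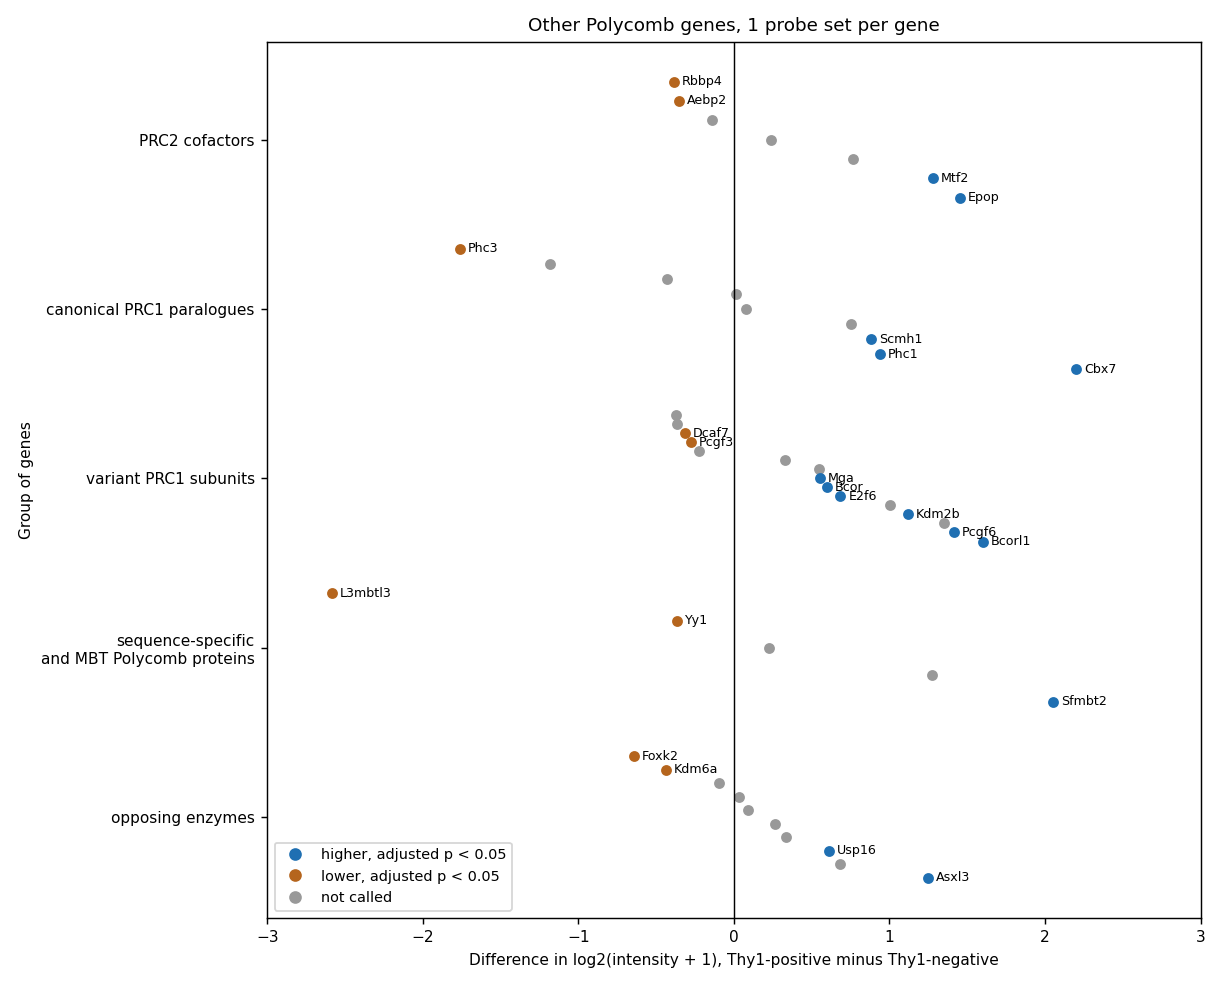
Difference in log2(intensity + 1), Thy1-positive minus Thy1-negative, for the 46 other Polycomb genes by their brightest probe set, in 5 groups; blue is called higher, brown called lower and grey not called. Called values run from -2.59 (L3mbtl3) to 2.20 (Cbx7). Variant PRC1 subunits, the largest group with 15 of the 46 genes, hold 6 of the 14 higher genes.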

How the data were processed

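RNA of 6 samples was measured on Affymetrix whole-genome arrays, 1 per sample. The deposited table holds 1 intensity per probe set on a linear scale. Per the submitters' processing notes the tool was GCRMA, whereas the labels describe Microarray Suite signals, and the sources used here do not say which made the table. The precision is limited by the number of arrays; detection calls were not used here. Controls (64 probe sets) were left out. Log2(intensity + 1) values were compared with limma 3.58.1 (lmFit, eBayes; R 4.3.3), with fraction as the single term and Benjamini-Hochberg adjustment at 0.05 over 45037 probe sets, tested on simulated data. Symbols came from the platform table, where 34945 probe sets had 1 gene, 932 several and 9160 none. For genes other than members the probe set with the highest mean was used. Every member probe set is described; of other Polycomb genes, up to 3 called genes per direction and group, largest first, and the paralogues were to be named. E2f6, Mga and L3mbtl2 were named after values were seen, as partners of Pcgf6, and Phc2 and Asxl1 for contrast. The members and lists were chosen with earlier results of these data known. No block was used, because the labels do not say that same-numbered arrays share a preparation. Deviations of same-numbered arrays from their fraction mean correlated at -0.19, -0.17 and -0.01, and those of other pairs at -0.10 to 0.22. With 3 arrays per fraction these values cannot settle whether arrays are paired. Alternatives covered scaling, floor, filter, pseudocount, variance model, probe set choice and leaving out arrays. Listed genes without a value were not analysed here.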

Additional observations from a re-analysis of the deposited data

How the results depend on the processing

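Of 444 recomputed values of single member probe sets, 374 kept their direction and call, 41 gained a call, 18 lost it and 11 changed sign; the cause was not tested. None of the 11 turned values was called. Suz12 1452364_at became 0.11 with median centring and 0.077 with array weights, and ranged from -0.14 to 0.11 over the fits without 1 array. Suz12 1420021_s_at became 0.022 with median centring and ranged from -0.22 to 0.046, 1449661_at from -0.67 (called) to 0.025 and 1420020_at from -0.00218 to 0.22. With housekeeping centring, Ezh1 1429630_at became -0.082, Eed 1453830_at -0.000902 and Rnf2 1448043_x_at -0.070. Member probe sets called higher, 6 as reported, numbered 14 with median centring, 10 among probe sets above the median and 15 with array weights. The lower ones, 2 as reported, numbered 5 with array weights. Calls over all probe sets rose too. Of 45037 probe sets 5332 were higher as reported, 25863 with median centring and 13345 with array weights, and 6526 of the 22518 above the median. Lower ones went from 5201 to 10596 with array weights. All 6 higher member calls were shared with each of these settings. With 1 probe set per gene, 2 genes were higher, and with the mean of a gene's probe sets 1 was lower, Ring1, with Rnf2 no longer called. With the replicate number as a block, 0 member probe sets were higher and 0 lower by limma (15 had an unadjusted p below 0.05 without it), and 5 and 0 of the other Polycomb genes. Over all 45037 probe sets that block left 746 higher and 485 lower. The labels' numbers share no stated preparation. Leaving out 1 array gave 2 to 11 higher and 1 to 3 lower members, and 8 to 20 higher and 4 to 9 lower other genes. Over all probe sets these fits gave 1639 to 6790 higher and 1538 to 6214 lower. Other genes called higher, 14 as reported, numbered 25 with median centring and 24 with array weights, and lower ones, 9 as reported, 4 by the mean of probe sets. The shift of Cbx2 minus Cbx7 turned to 0.73 by that mean. Median centring moved the median difference of all genes from 0.01 to 0.13 and the higher share of called probe sets from 50.6% to 81.4%.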
